A study of Mus musculus with 9 samples.

Results

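Basal cells from the leading edge of a healing tail wound were compared with basal cells from the proliferative hub around it, over every gene on the array. The comparison used 6 of the 9 arrays of the series, 3 of each region, and 17097 gene symbols, each represented by 1 probe set, the one brightest on average across the 9 arrays. The cells came from CD1 mice, 4 days after a punch wound of 3 mm in diameter was made in the tail skin. In the study's methods a punch of 4 mm around the wound took the leading edge and one of 6 mm took the hub, but for the sort on α5 integrin only the 4 mm punch is named, so the punch that gave the hub cells measured here is not certain. Basal cells of the epidermis between and just around the hair follicles were sorted as α6 integrin-positive and CD34-negative, and then as α5 integrin-positive at the leading edge (LE) and α5 integrin-negative in the hub. Region and α5 integrin gate therefore cannot be told apart. Control basal cells were taken in the same way from tail skin far from the wound, with no α5 integrin gate named in their label. Each array held amplified cDNA of 300 sorted cells. The methods describe pools of 5 mice for an earlier set of arrays and do not say whether these samples were pooled in the same way. The labels call the 3 arrays of a group biological replicates while the study's methods call them technical, so the p-values below reflect only how far these arrays differ among themselves, and that spread may be technical. In sorted bulk samples, fewer cells carrying a transcript and less of it per cell cannot be told apart.

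When skin is wounded, keratinocytes next to the gap flatten, change the integrins and proteases they use, and crawl as a sheet over a provisional matrix, while cells further back divide and supply the sheet. Migrating cells must loosen their attachment to the basement membrane, build focal adhesions and cut through the clot. Tail skin also has a patterned epidermis, in which scales make hard keratins related to those of hair and nail, and the skin between them does not.

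All values are RMA-normalised log2 intensities, so a difference of 1 is 2-fold, and differences are leading edge minus hub ± the standard error of the limma fit over the 9 arrays (n = 3 arrays per group). A gene is called when its limma p-value, adjusted by Benjamini-Hochberg over all 17097 genes, is under 0.05. Of all genes, 922 (5.39%) were called higher at the leading edge and 894 (5.23%) lower, together 10.6%, with a median difference over all genes of -0.01. Every count of list members below is to be read against these shares. At least 2-fold changes were rarer in that list, with 205 genes (1.2%) higher and 114 (0.667%) lower. More than 2-fold differences in each same-numbered pair were found for 118 genes higher (0.69%) and 60 lower (0.351%), and 3877 genes (22.7%) had an unadjusted p under 0.05. The arrays of the groups did not overlap for 2484 genes higher (14.5%) and 2641 lower (15.4%). Leaving out 1 array at a time gave 638 to 987 genes higher and 563 to 974 lower, and the count of lower genes was 587 without leading edge replicate 2, 563 without leading edge replicate 3 and 588 without hub replicate 2.

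**Figure D1:**
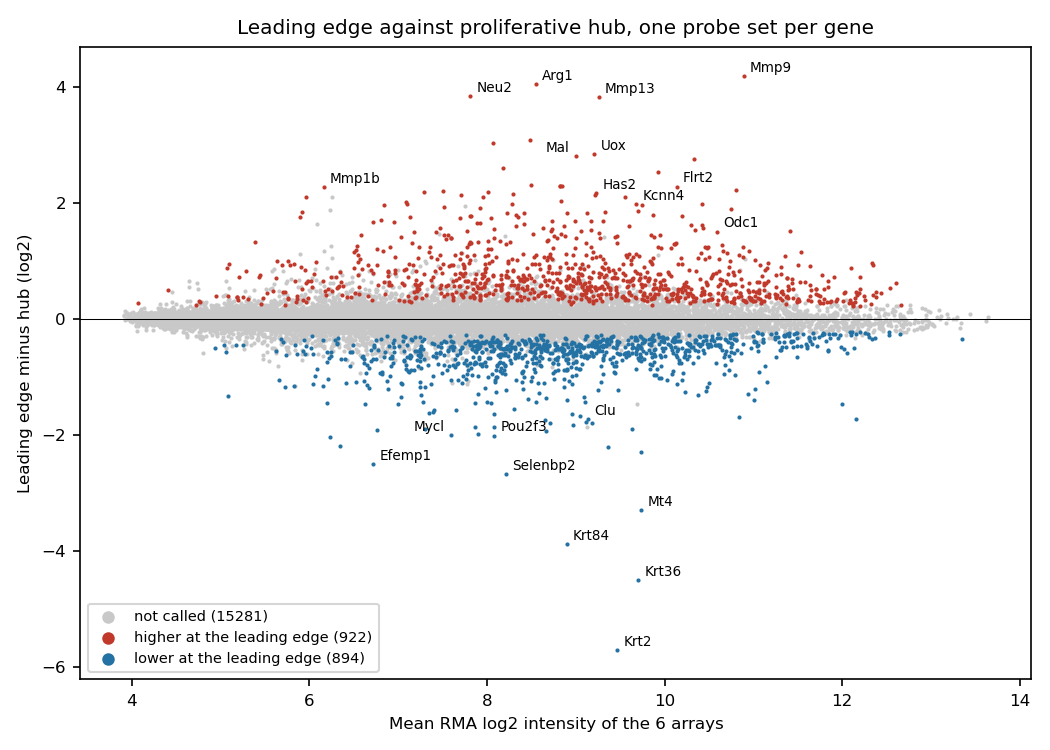
Difference between leading edge and hub (log2, vertical) against the mean log2 intensity of the 6 arrays (horizontal), one point per gene. Red points are the 922 genes called higher at the leading edge and blue points the 894 called lower, and the named genes reach from 4.19 for Mmp9 down to -5.72 for Krt2.

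The arrays carried the sort that their labels describe. Itga5, the α5 integrin gene, read 9.10, 9.06 and 9.17 at the leading edge and 6.46, 7.47 and 6.81 in the hub, a difference of 2.19 ± 0.21. Cd34 lay near the array's background in both regions (4.62, 4.81 and 4.95 at the leading edge and 4.72, 4.74 and 4.77 in the hub), and the basal keratins Krt5 and Krt14 sat between 13.23 and 13.34 in the 6 arrays. Transcripts used as markers of other cells were uneven among the leading edge arrays. The mean of 18 myeloid markers was 7.09, 6.48 and 7.01 at the leading edge against 6.35 in each hub array, and Lyz2, the macrophage lysozyme, read 8.25, 5.36 and 7.12 at the leading edge and 5.25, 5.38 and 5.19 in the hub. Of these 18 markers, 2 were called higher (Cd14 and Cxcr2), and 6 were once leading edge replicate 2 was left out. The 18 include S100a8 and S100a9, which the paper lists among genes raised in sorted basal cells of both wound regions. Their mean is therefore not specific to myeloid cells. The mean of 12 endothelial markers was 7.84 in leading edge replicate 1 and 6.97 to 7.35 in the other 5 arrays, and the mean of 6 Langerhans cell markers was 8.08 in leading edge replicate 3 and 7.10 to 7.57 in the others. Single members were unequal, with leading edge means from 4.44 to 10.37 for the myeloid and from 5.47 to 12.97 for the endothelial markers. The mean of 6 T cell markers was 6.74, 6.70 and 6.88 at the leading edge and 6.94, 6.95 and 7.03 in the hub. Only Thy1 of the 6 was called, at -1.23, and the median difference of the list was -0.01. These markers were unequal, with leading edge means from 4.97 to 8.85. The defining T cell gene Cd3e stayed between 4.88 and 5.01 in the 6 arrays, near background. With leading edge replicate 2, the one lowest in myeloid transcripts, as the only leading edge array, 320 genes were higher and 267 lower. With the myeloid mean as a covariate, 252 were higher and 182 lower. In the fit with that array alone, the 20 largest rises differed by 1.61 to 4.39 and the 20 largest falls by -5.83 to -1.54. Their direction there was fixed in advance, because these genes were chosen among those whose groups do not overlap. Of the 20 rises, Fn1 differed by 1.61 and Tll1 by 2.14 in that fit, against 3.03 and 2.28 with all arrays. The part of these other cells in the results was not tested further.

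Secreted proteases that cut matrix held 2 of the 4 largest rises, Mmp9 and Mmp13. Several of the family lie side by side on mouse chromosome 9, and their start sites are shown here because the AP-1 motif TGANTCA, the site of Fos and Jun factors, lies close to them. The windows run from 250 bases before to 50 bases after the start in RefSeq's GRCm38.p6 annotation, read 5′ to 3′ on the gene's strand, and capitals mark the match. They cover chr9:7272264-7272563 (plus strand) for Mmp13, chr9:7502092-7502391 (plus strand) for Mmp10, chr9:7445572-7445871 (plus strand) for Mmp3 and chr9:7387977-7388276 (minus strand) for Mmp1b.
Mmp13: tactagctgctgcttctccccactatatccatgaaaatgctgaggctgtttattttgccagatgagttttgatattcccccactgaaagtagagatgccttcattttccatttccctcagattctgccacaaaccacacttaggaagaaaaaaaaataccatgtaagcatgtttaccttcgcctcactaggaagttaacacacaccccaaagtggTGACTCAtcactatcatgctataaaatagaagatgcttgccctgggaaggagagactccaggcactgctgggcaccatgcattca
Mmp10: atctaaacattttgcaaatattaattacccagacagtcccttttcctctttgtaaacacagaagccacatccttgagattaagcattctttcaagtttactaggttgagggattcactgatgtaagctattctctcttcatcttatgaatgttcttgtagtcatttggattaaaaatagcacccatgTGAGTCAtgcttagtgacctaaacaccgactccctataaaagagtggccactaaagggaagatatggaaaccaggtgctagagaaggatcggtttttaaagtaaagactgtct
Mmp3: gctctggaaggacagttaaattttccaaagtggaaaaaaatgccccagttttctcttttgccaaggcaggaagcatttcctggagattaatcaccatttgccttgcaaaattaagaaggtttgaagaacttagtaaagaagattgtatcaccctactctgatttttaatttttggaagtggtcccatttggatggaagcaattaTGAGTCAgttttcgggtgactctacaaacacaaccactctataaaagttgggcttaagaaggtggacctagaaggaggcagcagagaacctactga
Mmp1b: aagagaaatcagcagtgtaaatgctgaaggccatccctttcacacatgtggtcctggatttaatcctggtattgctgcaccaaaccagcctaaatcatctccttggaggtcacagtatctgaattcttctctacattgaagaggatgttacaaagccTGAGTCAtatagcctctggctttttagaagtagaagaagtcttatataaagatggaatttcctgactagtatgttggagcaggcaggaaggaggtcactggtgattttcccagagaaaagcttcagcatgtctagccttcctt

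The match starts 35 bases before the transcription start of Mmp13, 63 before that of Mmp10, 46 before that of Mmp3 and 93 before that of Mmp1b. Searched on both strands, the motif is in 6.51% of the 17065 windows of 13605 genes tested, in 8.84% of the windows of genes called higher and in 14.4% of those of genes at least 2-fold higher, against 5.45% for genes called lower and 9.73% for genes at least 2-fold lower. The other motifs searched, also on both strands, were the hypoxia element core ACGTG, TEAD GGAATG, the antioxidant element core TGANNNNGC, STAT TTCNNNGAA, ROR AGGTCA and AP-2 GCCNNNGGC. They are in 22.8%, 13.2%, 42.6%, 7.36%, 14.3% and 21.9% of all windows and in 22.6%, 16.8%, 41.3%, 4.81%, 14.9% and 26.9% of the windows of genes at least 2-fold higher. A match is not a measured binding site. The windows shown were chosen because they hold the motif. In the same stretch of the chromosome it is also in windows of Mmp7 and Mmp20, neither of which was called, and it is missing from the window of Mmp8, from a second window of Mmp7 and from 1 of the 2 windows of Mmp12.

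Mmp13, a collagenase, read 11.39, 11.23 and 10.89 at the leading edge and 8.69, 6.73 and 6.62 in the hub, so that all leading edge arrays lay above the hub (3.83 ± 0.54, adjusted p = 0.00195). Its hub arrays were unequal, replicate 1 lying well above the others, and with leading edge replicate 2 alone the difference was 3.89 with an adjusted p of 0.0708. Mmp10, or stromelysin-2, read 11.19, 11.32 and 11.08 at the leading edge and 9.88, 8.70 and 7.41 in the hub and differed by 2.53 ± 0.47 (adjusted p = 0.00817). It too was spread in the hub and even at the leading edge, and with leading edge replicate 2 alone its adjusted p was 0.148. Mmp3, or stromelysin-1, was steadier, at 10.85, 10.70 and 10.64 at the leading edge and 9.10, 8.71 and 8.51 in the hub (difference 1.95 ± 0.15, adjusted p = 6.05e-05). Control skin stood between the regions for Mmp3, with a mean of 9.69.

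Mmp1b, a rodent counterpart of interstitial collagenase, read 7.52, 7.44 and 6.93 at the leading edge and 5.01, 5.07 and 5.01 in the hub, and its hub arrays lay close to the background of the array. With the hub at that level the difference of 2.27 ± 0.14 (adjusted p = 2.06e-05) is best read as a lower bound. Mmp12, the macrophage elastase, differed by 0.70 ± 0.13. Mmp7, Mmp8 and Mmp20, from the same neighbourhood, gave -0.06 ± 0.08, 0.07 ± 0.09 and -0.08 ± 0.07, none of them called. Mmp2, the gelatinase that acts with Mmp14, went the other way, at 7.52, 7.69 and 7.23 at the leading edge and 8.81, 8.82 and 8.57 in the hub, and fell by 1.25 ± 0.12 (adjusted p = 0.000262). Of the 18 metalloproteinases measured, 9 were called higher and 1 lower, with a median of 0.21. Over all genes 5.39% were higher and 5.23% lower. An inhibitor of these enzymes rose as well: Timp1, by 3.09, the only one called of 4 such inhibitors measured. Timp3, which the paper names as the most downregulated gene of its leading edge signature, pointed the other way. It was not called, although 1 of its 4 probe sets was lower, with differences from -0.82 to -0.13.

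**Figure D2:**
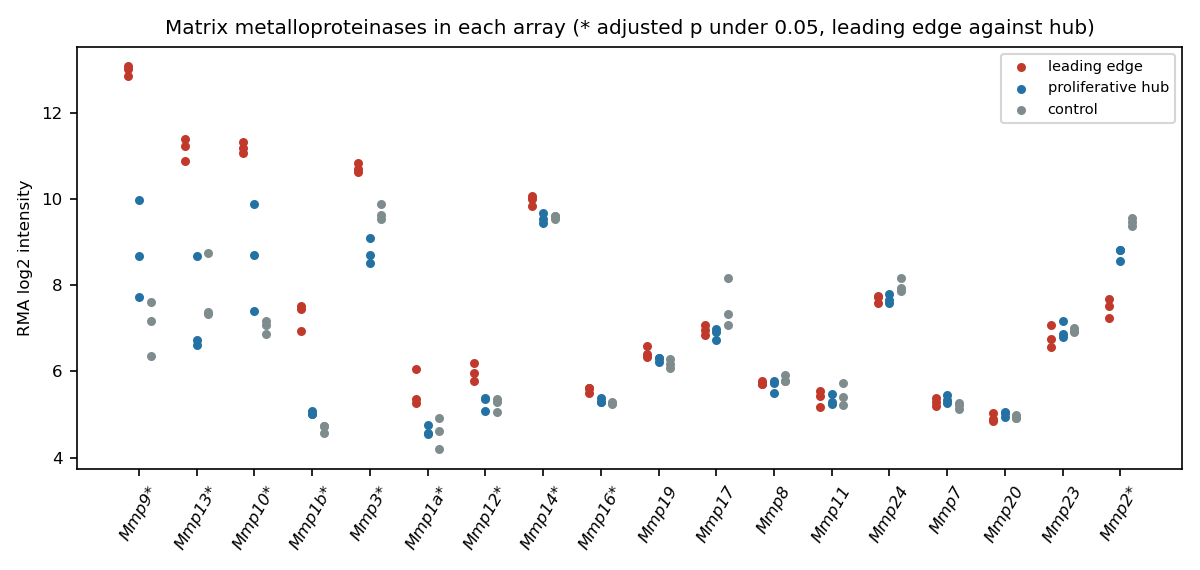
RMA log2 intensity (vertical) of each of the 18 metalloproteinases (horizontal, ordered by the difference between leading edge and hub) in the 3 leading edge, 3 hub and 3 control arrays, with called genes starred. Mmp9 and Mmp13 head the row and Mmp2, at its end, has its leading edge arrays lowest.

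Arg1 rose more than any gene but Mmp9. The gene encodes arginase 1, which splits arginine into ornithine and urea, and it read 10.13, 10.91 and 10.66 at the leading edge and 6.59, 6.74 and 6.25 in the hub, a 16.5-fold difference (4.04 ± 0.20, adjusted p = 9.98e-06). The groups lay far apart, and the control mean was 6.16. Leading edge replicate 2 had the highest value. Its myeloid mean of 6.48 was the lowest of the leading edge arrays but above the 6.35 of each hub array. Which cells the transcript came from was not tested. Odc1, ornithine decarboxylase, which turns ornithine into the polyamine putrescine, read 11.33, 11.36 and 11.33 at the leading edge and 9.82, 9.70 and 9.99 in the hub and rose by 1.5 ± 0.10 (adjusted p = 2.36e-05). Ass1, argininosuccinate synthase of the route that remakes arginine, rose by 0.78 ± 0.11, although a second probe set for it gave 0.19 and was not called. Arg2, the mitochondrial arginase, was not called at 0.50 ± 0.18. In the list of 29 amino acid transporters and polyamine enzymes, 4 genes were higher and 5 lower. The lower count was 2 without leading edge replicate 2 or hub replicate 2, and 3 without any other array except control replicate 2. The 5 were the carriers Slc6a9, Slc1a3, Slc3a2 and Slc38a2 and the polyamine acetylase Sat1, between -0.78 and -0.24.

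Other large rises belonged to genes of varied function. Neu2, a cytosolic sialidase, read 10.07, 9.82 and 9.30 at the leading edge and 6.47, 5.87 and 5.33 in the hub. Uox, the urate oxidase best known from liver, read 10.58, 10.60 and 10.70 at the leading edge and 8.32, 7.04 and 8.01 in the hub, with the middle hub array lowest. Mal, a protein of membrane rafts, read 10.12, 10.60 and 10.50 at the leading edge and 7.54, 7.82 and 7.43 in the hub, with a control mean of 7.59. Basp1 and Marcksl1 encode proteins of the cortical membrane that hold phosphoinositides next to actin. Basp1 read 9.49, 9.76 and 9.69 at the leading edge and 7.46, 7.50 and 7.07 in the hub and Marcksl1 11.92, 12.03 and 11.79 at the leading edge and 9.52, 9.99 and 9.57 in the hub, rises of 2.30 ± 0.18 and 2.22 ± 0.24. In both genes the hub also stood above the control, by 1.54 and 1.25.

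Several ligands of the EGF family rose, while FGF pathway genes went both ways. Tgfa, which encodes the EGF receptor ligand TGF-α, read 10.69, 10.59 and 10.53 at the leading edge and 8.39, 8.25 and 8.89 in the hub and rose by 2.10 ± 0.17 (adjusted p = 8.1e-05). Ereg, or epiregulin, read 8.15, 7.98 and 7.90 at the leading edge and 6.14, 6.19 and 6.43 in the hub and rose by 1.76 ± 0.10. Hbegf, already high in the hub, moved from a hub mean of 10.69 to 11.65. Nrg1 and Epgn, the other 2 called ligands, rose by 1.28 ± 0.17 and 1.14 ± 0.18. Egfr itself differed by -0.06 ± 0.08 and was not called, and Lrig3, of a family of leucine-rich membrane proteins that restrain growth factor receptors, fell by 0.88 ± 0.12. The list of 16 ligands and ErbB receptors held 5 higher and 1 lower genes.

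Fgf18 read 8.56, 8.91 and 8.68 at the leading edge and 7.23, 6.98 and 6.60 in the hub, a rise of 1.78 ± 0.18 (adjusted p = 0.000353). Dusp6, the phosphatase that ERK signalling induces against itself, rose by 1.06 ± 0.17, whereas Spry1, another feedback inhibitor of the pathway, read 6.47, 6.52 and 6.52 at the leading edge and 7.72, 6.99 and 7.28 in the hub and fell by 0.82 ± 0.16. Fgfr2, the receptor through which keratinocytes read dermal FGFs, went from 11.64, 11.60 and 11.49 in the hub to a leading edge mean of 11.04, a small but even fall of 0.54 ± 0.07. Fgfr3 fell by 0.48 ± 0.07. Of 32 FGF and ERK feedback genes, 4 (12.5%) were higher and 4 (12.5%) lower, against 5.39% and 5.23% of all genes. With the myeloid mean as a covariate, 1 was higher and none lower.

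Both Has2 and Has3 rose, 2 of the enzymes that make hyaluronan, the large sugar polymer of wound matrix, while Has1 differed by 0.07 ± 0.08 and was not called. Has2 read 10.56, 10.33 and 10.04 at the leading edge and 8.22, 8.82 and 7.39 in the hub and rose by 2.17 ± 0.33 (adjusted p = 0.0029). Has3 read 10.37, 10.06 and 10.10 at the leading edge and 8.93, 9.33 and 9.08 in the hub and rose by 1.06 ± 0.12, and its control mean of 6.41 lay far below both regions. In the list of 15 hyaluronan and proteoglycan genes 7 were higher and none lower. The count of higher genes was 3 without leading edge replicate 2 and 4 without leading edge replicate 3 or without any 1 hub array.

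Some genes of the plaque that joins integrins to actin rose by small amounts. Of 22 focal adhesion scaffold genes, 11 were higher, the same 11 in every leave-one-out fit, and 1 was lower. The higher count was 7 with leading edge replicate 2 as the only leading edge array and 4 with the myeloid mean as a covariate. Flna, the actin cross-linker filamin A, read 11.78, 11.80 and 11.67 at the leading edge and 11.06, 11.14 and 11.18 in the hub, and Tln1, the integrin activator talin, read 11.58, 11.54 and 11.46 at the leading edge and 10.97, 11.01 and 10.98 in the hub, rises of 0.63 ± 0.07 and 0.54 ± 0.07. The exception was Tns1, encoding tensin 1, found in mature fibrillar adhesions, which read 8.72, 8.20 and 8.33 at the leading edge and 9.89, 9.69 and 9.73 in the hub and fell by 1.35 ± 0.13 (adjusted p = 0.00022). Among 16 integrin subunits 8 were higher and only Itgb5, a partner in a vitronectin receptor, was lower, at 9.43, 9.48 and 9.36 at the leading edge and 10.04, 10.16 and 10.13 in the hub (difference -0.69 ± 0.07). The 8 include Itga5, on whose protein the groups were sorted apart, and Itga6, whose protein was used to gate both regions. With the myeloid mean as a covariate, 4 integrin subunits were higher.

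Axon guidance molecules and their receptors moved in both directions. Flrt2, a membrane protein that binds Unc5 receptors and FGF receptors, read 11.30, 11.17 and 11.36 at the leading edge and 9.0, 8.85 and 9.14 in the hub and rose by 2.28 ± 0.15 (adjusted p = 2.7e-05), in all 3 of its probe sets. Its relative Flrt3 read 11.52, 11.56 and 11.45 at the leading edge and 10.23, 10.19 and 10.38 in the hub and rose by 1.24 ± 0.07. Sema6d, a transmembrane semaphorin, read 8.76, 8.41 and 8.52 at the leading edge and 6.63, 6.86 and 7.0 in the hub and rose by 1.73 ± 0.12. Against these, Sema4g read 6.43, 6.70 and 6.55 at the leading edge and 8.11, 7.96 and 7.92 in the hub and fell by 1.44 ± 0.19, and Neo1, the netrin and repulsive guidance receptor neogenin, fell by 0.75 ± 0.08. Of 45 semaphorin, plexin, netrin, slit and FLRT genes, 8 (17.8%) were higher and 4 (8.89%) lower, against 5.39% and 5.23% of all genes. The lower count was 2 without leading edge replicate 2, hub replicate 2 or hub replicate 3.

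Among ion channels the largest rise was that of Kcnn4. It encodes the calcium-activated potassium channel KCa3.1, used by many cells for volume control, and read 10.87, 10.72 and 10.42 at the leading edge and 8.70, 8.74 and 8.62 in the hub, a rise of 1.98 ± 0.15 (adjusted p = 5.7e-05). Kcnk1, a leak potassium channel, read 9.86, 10.04 and 10.03 at the leading edge and 8.36, 8.62 and 8.75 in the hub and rose by 1.40 ± 0.15. Piezo1, which opens when the membrane is stretched, read 8.90, 8.89 and 8.75 at the leading edge and 8.07, 8.09 and 8.28 in the hub and rose by 0.70 ± 0.10. For Kcnn4 and Kcnk1 the hub was also above the control, by 1.48 and 1.53, while for Piezo1 it was at -0.07. Of 37 channels, calcium sensors and aquaporins, 7 were higher (4 without leading edge replicate 2, leading edge replicate 3 or hub replicate 3). Only 2 were lower, with 0 to 4 when 1 array was left out: 0 without leading edge replicate 2, hub replicate 1 or hub replicate 3, 1 without leading edge replicate 1 or hub replicate 2, and 4 without control replicate 3.

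**Figure D3:**
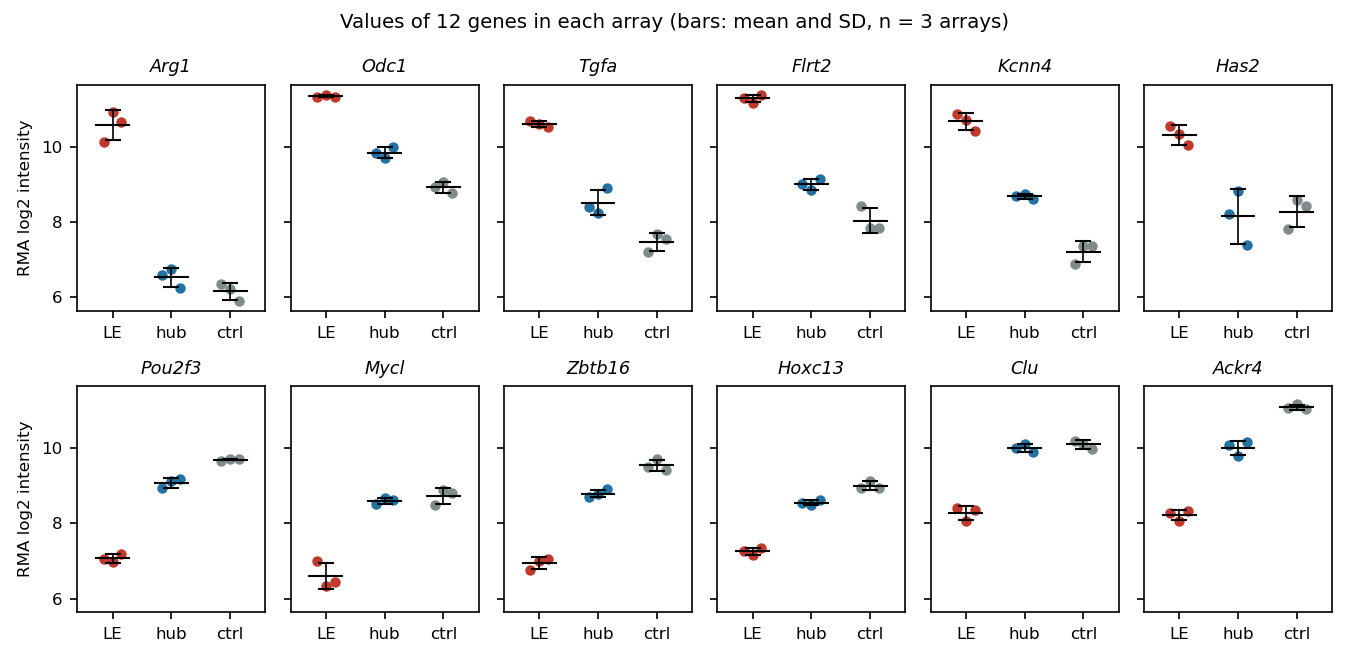
RMA log2 intensity (vertical) of 12 genes in the leading edge (LE), hub and control (ctrl) arrays, 3 points each, with the mean and SD. In the upper row the leading edge points lie above the hub points, and in the lower row below them, without overlap.

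At the lower end, keratins of tail scale and of the suprabasal layers lost most. Krt2 read 5.99, 6.5 and 7.35 at the leading edge and 12.25, 12.35 and 12.38 in the hub, a 52.5-fold fall, Krt36 read 7.83, 7.58 and 6.94 at the leading edge and 12.14, 11.86 and 11.87 in the hub and Krt84 read 7.06, 6.63 and 7.18 at the leading edge and 11.15, 10.85 and 10.52 in the hub. All 3 were near their control level in the hub, with hub minus control of -0.27, -0.17 and -0.22. Krt1 and Krt10, the pair of keratins that cells make on leaving the basal layer, fell by 1.73 ± 0.32 and 1.47 ± 0.22, with leading edge arrays at 12.09, 10.49 and 11.28 and 11.92, 10.96 and 10.90, which shows replicate 1 highest for both. Of 11 scale and suprabasal keratins 6 fell and none rose, in every leave-one-out fit. Krt15, a basal keratin of follicle and interfollicular progenitors, read 8.52, 8.72 and 8.68 at the leading edge and 9.98, 9.86 and 9.75 in the hub and fell by 1.23 ± 0.09 (adjusted p = 4.19e-05).

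Many transcription factors of the epidermis fell. Of 59 such factors, 18 were lower and 2 higher, against 5.23% and 5.39% of all genes, with a median of -0.08. The lower count was 11 without leading edge replicate 2. The higher count was 1 without leading edge replicate 2 or 3 or hub replicate 1 or 3, and 4 without control replicate 2. Hoxc13, which drives hard keratin genes in hair and nail, read 7.27, 7.16 and 7.34 at the leading edge and 8.55, 8.48 and 8.62 in the hub and fell by 1.29 ± 0.08 (adjusted p = 2.67e-05). Rora, a nuclear receptor of differentiation, read 10.27, 10.14 and 10.18 at the leading edge and 11.11, 11.12 and 11.21 in the hub and fell by 0.95 ± 0.07. Maf, a bZIP factor of keratinocyte differentiation, fell by 0.92 ± 0.13, and Hopx, a homeodomain-only protein of upper layers and stem cells, fell by 0.77 ± 0.09. In contrast Trp63, the basal identity factor p63, stood at 12.30, 12.26 and 12.30 at the leading edge and 12.29, 12.27 and 12.31 in the hub and was not called.

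Larger falls came from factors outside that list. Pou2f3, a POU factor of keratinocyte differentiation, read 7.05, 6.97 and 7.19 at the leading edge and 8.93, 9.13 and 9.19 in the hub and fell by 2.01 ± 0.09 (adjusted p = 9.66e-06). Zbtb16, the zinc finger repressor PLZF, read 6.76, 6.99 and 7.06 at the leading edge and 8.70, 8.77 and 8.91 in the hub and fell by 1.86 ± 0.11, although a second, dimmer probe set gave -0.13. Against control skin, the leading edge differed by -2.62 for Pou2f3 and -2.61 for Zbtb16, and the hub by -0.61 and -0.75, in comparisons that share the control arrays.

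**Figure D4:**
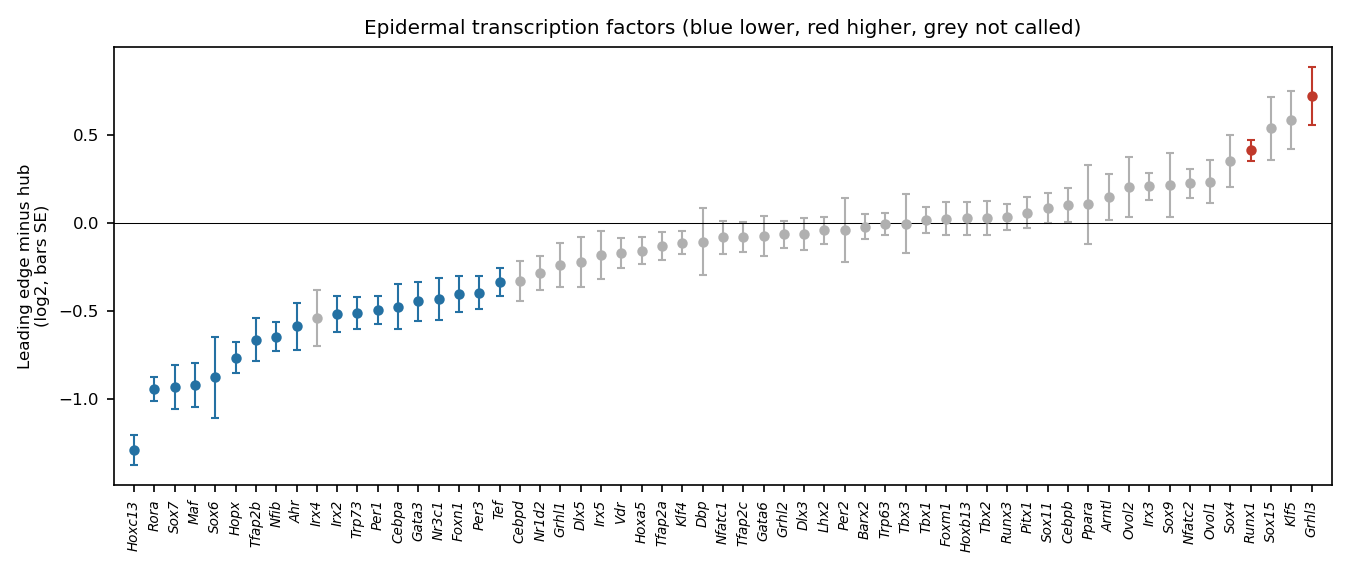
Difference between leading edge and hub (log2, vertical, bars SE) for each of the 59 epidermal transcription factors (horizontal, ordered by difference). Blue points are the 18 called lower and red points the 2 called higher, and Hoxc13 at -1.29 is the lowest.

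Genes of the Myc network moved in opposite directions. Myc read 10.40, 10.43 and 10.57 at the leading edge and 11.09, 11.02 and 10.98 in the hub and fell by 0.56 ± 0.07 (adjusted p = 0.000989). Mycl, its relative of differentiating and immune cells, read 7.0, 6.35 and 6.45 at the leading edge and 8.51, 8.67 and 8.61 in the hub and fell by 2.00 ± 0.17 in the probe set used, and all 3 of its probe sets were lower. Mxd1, a partner of Max that represses Myc targets, read 9.11, 9.67 and 9.29 at the leading edge and 8.55, 8.36 and 8.51 in the hub and rose by 0.88 ± 0.14, and Mxi1, of the same family, rose by 0.98 ± 0.14. Another member, Mxd4, went down instead, by 0.55 ± 0.09. Of 33 genes of this network and of ribosome assembly, 10 were lower and 2 higher, and the lower count was 5 without leading edge replicate 2 or hub replicate 3 and 6 without hub replicate 1. Mki67, the marker of cycling cells, read 10.55, 10.34 and 10.43 at the leading edge and 10.48, 10.38 and 10.57 in the hub and was not called, nor was the topoisomerase gene Top2a at 0.20 ± 0.12. Of 33 mitosis genes 3 were higher (Anln, Ube2c and Aurka), and none without any 1 of the leading edge arrays or hub replicates 1 or 2.

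Several genes of matrix proteins fell. Efemp1, the elastic fibre protein fibulin-3, read 5.47, 5.22 and 5.70 at the leading edge and 7.73, 8.11 and 8.07 in the hub and fell by 2.51 ± 0.16. Smoc2, a calcium-binding protein of basement membranes, read 7.31, 7.36 and 7.10 at the leading edge and 8.94, 8.80 and 8.96 in the hub and fell by 1.64 ± 0.11. Fras1, which anchors epidermis to dermis, read 8.42, 7.95 and 8.05 at the leading edge and 9.83, 9.70 and 9.82 in the hub and fell by 1.64 ± 0.12 (adjusted p = 4.84e-05). Postn, or periostin, and Ltbp4, which stores latent TGF-β, fell by 1.31 ± 0.17 and 1.10 ± 0.08. Tnc, or tenascin C, a protein of provisional matrix, rose instead, from 10.80, 10.72 and 10.62 to 11.58, 11.63 and 11.56 (0.87 ± 0.08). In the list of 24 provisional and matricellular proteins, 6 were higher and 8 lower. Fn1, or fibronectin, read 11.42, 8.16 and 9.17 at the leading edge and 5.92, 7.61 and 6.12 in the hub, with replicate 1 far above the other leading edge arrays. Its adjusted p of 0.0273 was above 0.05 without leading edge replicate 3, hub replicate 1 or hub replicate 3 (differences of 3.24, 2.72 and 2.82), and with leading edge replicate 2 alone the difference was 1.61 (adjusted p = 0.273).

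Among cytokine genes, some ligands rose while several receptors fell. Il24, an IL-20 family cytokine made by wound keratinocytes, read 11.88, 11.64 and 11.56 at the leading edge and 9.15, 10.40 and 9.86 in the hub and rose by 1.89 ± 0.26 (adjusted p = 0.00154), and both regions lay far above the control mean of 6.30. Il20rb, a subunit of the receptors that bind it, read 6.96, 6.83 and 6.62 at the leading edge and 7.95, 8.19 and 7.65 in the hub and fell by 1.13 ± 0.15. Il6st, the shared gp130 subunit of the IL-6 family, read 10.31, 10.30 and 10.23 at the leading edge and 11.11, 11.14 and 11.01 in the hub and fell by 0.80 ± 0.08, and its partner Il6ra fell by 0.56 ± 0.07. Of 17 genes of these families 4 were lower and 2 higher, the second being Il10rb, and 1 was higher without leading edge replicate 2 or 3, hub replicate 1 or 2, or control replicate 1 or 3. In the IL-1 family, Il1a rose by 0.93 ± 0.08 and Il33 by 0.94 ± 0.15, and Il1r2, the decoy receptor that binds IL-1 without signalling, read 6.89, 6.55 and 6.34 at the leading edge and 8.01, 8.21 and 8.38 in the hub and fell by 1.61 ± 0.19.

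A few chemokine genes were lower, among them Ccl27a and Cxcl14, which resting epidermis makes. Ccl27a, which draws skin-homing T cells, read 9.03, 8.71 and 8.31 at the leading edge and 10.58, 10.78 and 10.38 in the hub and fell by 1.89 ± 0.17. Ackr4, a scavenger receptor that clears CCL19, CCL21 and CCL25, read 8.29, 8.07 and 8.32 at the leading edge and 10.08, 9.78 and 10.15 in the hub and fell by 1.78 ± 0.11 (adjusted p = 2.06e-05). Cxcl14 fell by 0.96 ± 0.14, and Ackr3, a scavenger of CXCL12, rose by 0.80 ± 0.10. Of 25 chemokines and receptors 4 were lower and 1 higher, with 3 higher without leading edge replicate 2 and 2 without control replicate 3.

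Some complement genes and some genes of proteins that guard cells against complement fell. Clu, or clusterin, which blocks the membrane attack complex, read 8.42, 8.06 and 8.35 at the leading edge and 10.00, 10.12 and 9.90 in the hub and fell by 1.73 ± 0.11 (adjusted p = 2.28e-05). C1s1 and C1rb, proteases of the first component, fell by 1.10 ± 0.14 and 0.70 ± 0.07. Cd59a, a membrane inhibitor of the attack complex, read 9.23, 9.35 and 9.16 at the leading edge and 10.13, 10.18 and 10.01 in the hub and fell by 0.86 ± 0.09. Of 29 antimicrobial and complement genes 8 were lower. The 2 higher genes were Slpi and C5ar1, with 0 higher without leading edge replicate 3 or hub replicate 2 and 1 without any other array but leading edge replicate 2.

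Most Wnt and BMP signalling components were not called, and of those called more were lower than higher. In the Wnt list 13.2% were lower and 7.55% higher, and in the BMP list 19.0% and 4.76%. Over all genes the shares were 5.23% and 5.39%. Wnt5a, a ligand of planar polarity and migration, was the main exception, at 8.68, 9.03 and 8.85 at the leading edge and 7.08, 7.35 and 7.49 in the hub, and rose by 1.55 ± 0.17 (adjusted p = 0.000502). Lrp4 and Lgr4, a co-receptor and an R-spondin receptor, read 8.57, 8.35 and 8.49 at the leading edge and 9.35, 9.62 and 9.38 in the hub and 8.11, 7.94 and 7.74 at the leading edge and 8.87, 8.94 and 8.79 in the hub, falls of 0.98 ± 0.09 and 0.94 ± 0.16. Of 53 Wnt genes 7 were lower and 4 higher, and 2 were higher without leading edge replicate 2 or 3 or any 1 hub array. Id3, a direct target of BMP signalling, read 8.63, 8.33 and 8.32 at the leading edge and 9.41, 9.30 and 9.22 in the hub and fell by 0.88 ± 0.10, and the ligand Bmp7 fell by 0.78 ± 0.11. Of 21 BMP genes 4 were lower and 1 higher, the protease gene Bmp1, which was not called without any 1 leading edge array, hub replicate 1 or 2, or control replicate 1. Inhba, the subunit of activin A, read 11.85, 11.85 and 11.42 at the leading edge and 8.49, 9.31 and 9.06 in the hub and rose by 2.76 ± 0.28, with a control mean of 6.86; a dimmer probe set gave 0.12.

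Several genes of protein folding in the endoplasmic reticulum rose. Of 32 heat shock and ER stress genes 11 were higher and 3 lower, with a median of 0.25. Trib3, a pseudokinase induced by the integrated stress response, read 9.43, 9.46 and 9.17 at the leading edge and 8.14, 8.11 and 8.16 in the hub and rose by 1.22 ± 0.13. Xbp1 rose by 0.72 ± 0.11 and the chaperone Hspa5, or BiP, by 0.55 ± 0.08. The cytosolic chaperone Hspa2 read 7.22, 6.97 and 7.66 at the leading edge and 8.77, 8.58 and 8.80 in the hub and fell by 1.44 ± 0.17.

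NRF2 target genes and related antioxidant genes split. Hmox1, or heme oxygenase 1, read 9.90, 10.04 and 10.18 at the leading edge and 8.11, 8.21 and 8.33 in the hub and rose by 1.82 ± 0.14 (adjusted p = 7.12e-05). Srxn1, or sulfiredoxin, rose by 1.15 ± 0.13 in the probe set used, and all 4 of its probe sets were higher. Selenbp1, encoding a selenium-binding methanethiol oxidase, read 7.81, 8.73 and 8.09 at the leading edge and 10.23, 9.55 and 9.88 in the hub and fell by 1.68 ± 0.24, and Gstm2 fell by 0.87 ± 0.07. Of 32 genes, 4 were higher and 6 lower, and 3 were lower without leading edge replicate 3, hub replicate 1 or hub replicate 2.

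Lipid enzymes of the barrier were among the rises, although the keratins of the same layers fell. Fads3, a sphingoid base desaturase, read 9.45, 9.32 and 9.33 at the leading edge and 7.47, 6.92 and 7.24 in the hub and rose by 2.15 ± 0.14 (adjusted p = 2.36e-05). Acsbg1, an acyl-CoA synthetase, read 9.57, 9.68 and 9.48 at the leading edge and 8.17, 7.81 and 7.66 in the hub and rose by 1.69 ± 0.19. Ppard, the lipid-sensing nuclear receptor PPARδ, rose by 1.03 ± 0.11. Alox12b, the lipoxygenase that processes barrier ceramides, read 7.24, 8.22 and 8.30 at the leading edge and 6.27, 6.48 and 6.54 in the hub and rose by 1.49 ± 0.25, with leading edge replicate 1 lowest. Of 30 fatty acid and lipid synthesis genes 8 were higher and 2 lower, and 1 was lower without leading edge replicate 3.

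Among cell junction genes and protease inhibitors, relatives moved in opposite directions. Dsc2, a desmosomal cadherin, read 10.57, 10.90 and 10.81 at the leading edge and 9.21, 9.45 and 9.75 in the hub and rose by 1.29 ± 0.17, while Dsc1, its counterpart in upper layers, read 6.90, 7.85 and 7.23 at the leading edge and 8.49, 9.14 and 8.69 in the hub and fell by 1.45 ± 0.23. Dsg1a read 8.56, 8.27 and 8.03 at the leading edge and 10.03, 10.13 and 10.07 in the hub and fell by 1.79 ± 0.14 (adjusted p = 5.7e-05). In tight junctions, Cldn4 rose by 1.98 ± 0.35 and Ocln, or occludin, fell by 0.85 ± 0.15. Among intracellular serpins, Serpinb7 and Serpinb3a read 5.58, 4.92 and 5.23 and 7.56, 7.95 and 7.59 at the leading edge and 7.78, 7.91 and 6.64 and 9.48, 9.97 and 9.42 in the hub, falls of 2.20 ± 0.31 and 1.93 ± 0.15. Serpinb1a and Serpinb6a rose by 1.12 ± 0.14 and 1.00 ± 0.10. Of 21 serpins and other protease inhibitors 4 (19.0%) were higher and 4 (19.0%) lower. Of 12 desmosome components 1 (8.33%) was higher and 2 (16.7%) lower, against 5.39% and 5.23% of all genes. Serpinb genes are close copies of each other, so their probe sets may share signal.

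Some genes linked to a partial mesenchymal state rose. Hmga2, a chromatin protein of embryonic and migrating cells, read 9.52, 9.16 and 9.32 at the leading edge and 7.26, 7.85 and 7.42 in the hub and rose by 1.83 ± 0.15 (adjusted p = 0.000109). Pdpn, or podoplanin, read 12.22, 12.11 and 12.01 at the leading edge and 10.85, 11.05 and 10.96 in the hub and rose by 1.16 ± 0.09, and the hub was itself 2.46 above the control. Epcam, an epithelial adhesion molecule that Langerhans cells also carry, rose by 1.04 ± 0.16, and the E-cadherin gene Cdh1 differed by 0.12 ± 0.10, not called. Vim, or vimentin, read 10.57, 8.57 and 8.58 at the leading edge and 7.06, 9.31 and 9.75 in the hub, and its groups overlapped. Of 28 genes 7 were higher and 1 lower, and 2 were lower without control replicate 2. The higher count was 4 with leading edge replicate 2 as the only leading edge array and 3 with the myeloid covariate. Vegfa, which makes vessels grow, read 10.97, 11.35 and 10.88 at the leading edge and 9.93, 9.81 and 9.78 in the hub and rose by 1.23 ± 0.15, 1 of 6 higher genes among 27 vascular and nerve growth factors and receptors.

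**Figure D5:**
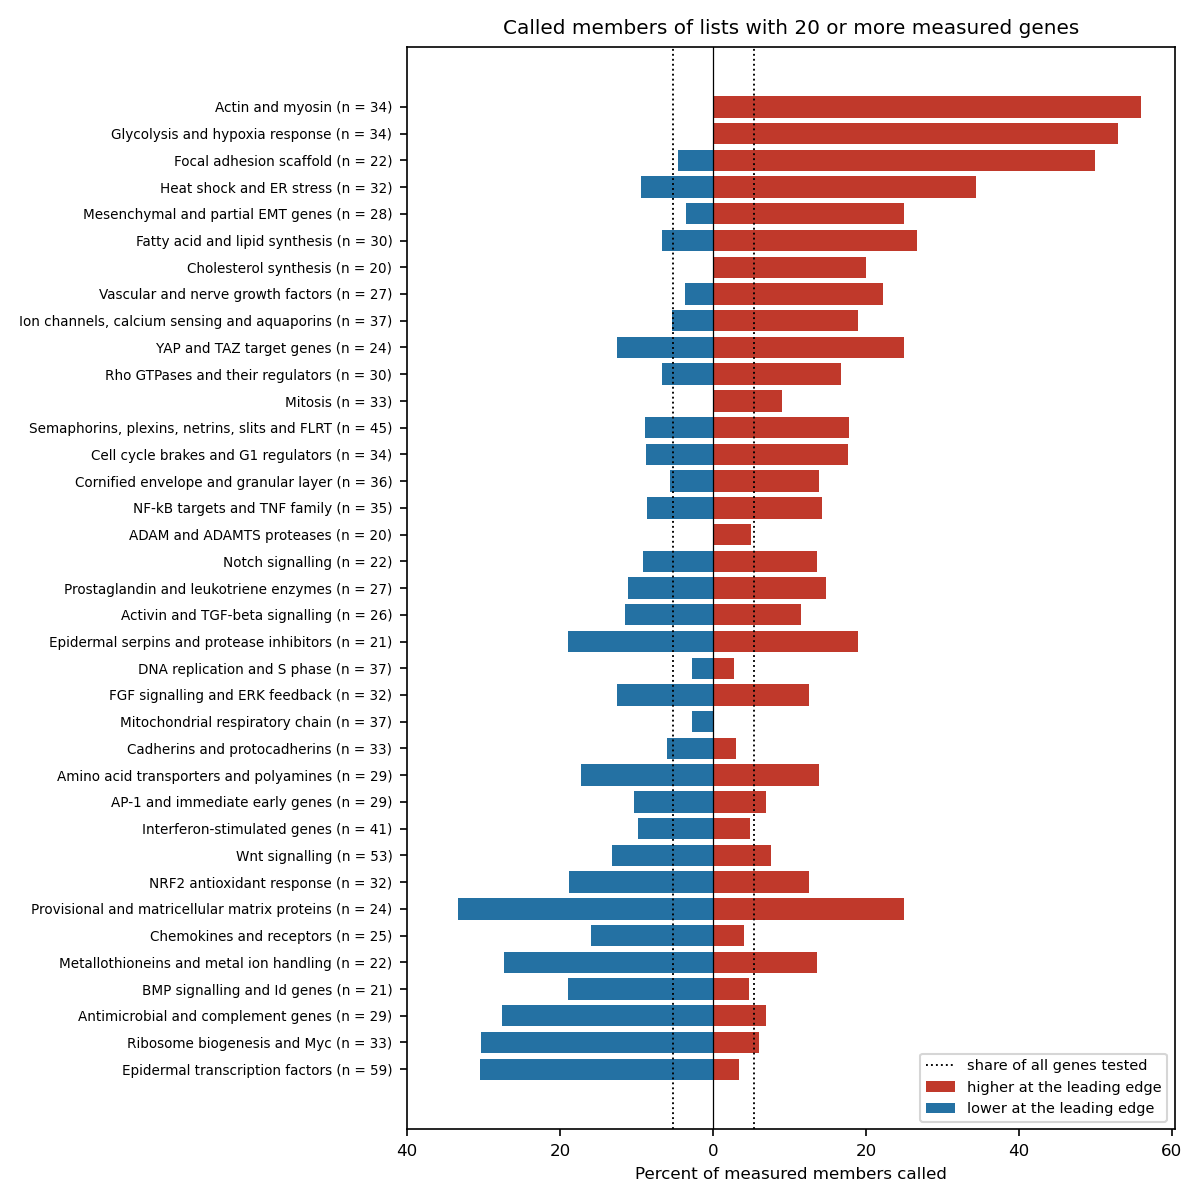
Share of measured members called higher (red, to the right) and lower (blue, to the left) at the leading edge, in percent, for each list with 20 or more measured genes, n beside the name. Dotted lines mark 5.39% and 5.23%, the shares of all genes; actin and myosin reach furthest right and the epidermal transcription factors are at the bottom, with 30.5% lower.

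Among further lists, actin and myosin had 19 of 34 genes higher and glycolysis and hypoxia response 18 of 34. None was lower in either, and 5.39% of all genes were higher. With the myeloid mean as a covariate, the count for actin and myosin was 4. Few genes of DNA replication and of the respiratory chain were called. Of 37 genes of DNA replication 1 was higher, and none without any 1 leading edge or hub array, and 1 was lower, with none without leading edge replicate 2 or hub replicate 3 and 2 without control replicate 3. Of 37 respiratory chain genes only Ndufa1 was called, at -0.47 ± 0.08, and 2 were without leading edge replicate 1 or control replicate 3. Thy1, a T cell and progenitor surface marker, read 9.15, 8.61 and 8.80 at the leading edge and 10.04, 10.13 and 10.09 in the hub and fell by 1.23 ± 0.13. H2-Ab1, a class II chain of antigen-presenting cells, read 7.88, 8.02 and 9.55 at the leading edge and 6.71, 6.44 and 6.51 in the hub and rose by 1.93 ± 0.37, while Cd74, which travels with class II, differed by 0.24 ± 0.28 and was not called. H2-Ab1 and Cd74 are themselves among the 6 Langerhans cell markers, so that the list's mean, highest in leading edge replicate 3, contains them. H2-Ab1 stayed called in each leave-one-out fit and with leading edge replicate 2 as the only leading edge array (1.47, adjusted p = 0.0126), but not with the myeloid mean as a covariate (1.49, adjusted p = 0.322).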

How the data were processed

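Sorted basal cells of 3 leading edge, 3 hub and 3 control samples were measured on 1-colour Affymetrix arrays. The deposited values are log2 intensities that the authors had normalised by RMA, so no scanner data were used and the number of arrays limits the precision; no column of the table was left out. Of 45141 probe sets, 28898 carry 1 gene symbol in GEO's platform annotation, 551 several and 15588 none, and 104 are controls; 28689 of the single symbols were found in RefSeq (GRCm38.p6). For each of 17097 symbols the probe set brightest on average across the 9 arrays was used, and 4 genes had probe sets called in opposite directions. Other probe sets are given in the text for some genes only, so silence does not mean that they agree. For Lgr4, Cxcl14 and Slc39a8 1 of 2 probe sets was called, for H2-Ab1 1 of 3 and for Rora 3 of 5. Groups were taken from the labels. limma 3.58.1 in R 4.3.3 fitted the 3 group means to all 9 arrays, with eBayes and Benjamini-Hochberg adjustment over all genes, at a threshold of 0.05. On simulated data for leading edge minus hub, with 200 of 17097 genes changed, it recovered 53.6% of changes of 0.5, 92.4% of changes of 1 and 98.5% of changes of 2 on the log2 scale, with 6.2% of calls false. The simulated noise was independent between genes and held no uneven share of other cells, so these rates may not hold for the real arrays. Promoter windows from RefSeq were matched by symbol for 13605 genes (Python 3.11.15, pandas 2.3.3).

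Named genes were the 20 largest rises and 20 largest falls among called genes whose groups do not overlap, up to 6 called members in each direction and up to 3 not called of each of 71 lists, the genes used in the sort, and markers of other cell types; further genes were named with their values known. The members and lists were chosen with earlier results of these data known. Alternatives were a replicate block, other normalisations, probe set rules, variance models, call rules, a myeloid covariate and leaving out each array.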

Additional observations from a re-analysis of the deposited data

How the results depend on the processing

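Of the 365 named genes that were called, none changed direction under any alternative fit. For those whose groups do not overlap, leaving out arrays could not change it. Of the 264 named genes that were not called, 120 changed sign in at least 1 alternative fit. The higher and lower gene counts, 922 and 894, were within 1.5 times under repeated quantile normalisation (938 and 964), median centring (914 and 875), dim genes left out (934 and 904), the mean of all probe sets (1002 and 994), all probe sets (1053 and 1037), the 6 arrays alone (1048 and 1027), a mean-variance trend (1037 and 1066) and array weights (1290 and 1285). They were 205 and 114 for at least 2-fold, 118 and 60 when each pair of arrays with the same number had to differ by over 2-fold, 252 and 182 with the myeloid mean as a covariate, and 320 and 267 with leading edge replicate 2 as the only leading edge array, an alternative chosen after seeing the data in which that array is assumed to vary like the others. Leaving out 1 array gave 638 to 987 higher and 563 to 974 lower genes, with 536 and 454 called in all 9 such fits. With the replicate number as a block, 845 genes were higher and 784 lower. The labels state no shared source for a number. The deviations of same-numbered leading edge and hub arrays correlated at -0.178, 0.002 and 0.03 over genes. These values cannot settle whether same-numbered samples came from the same mice, so any pairing is unknown. Under the block 25 named genes lost and 7 gained a call. With the myeloid covariate 217 named genes lost their call, and with leading edge replicate 2 alone 184 did; the cause was not tested. Signal over background limits dim genes: 16281 of 17097 genes lay above the median of the 23 probe sets for nonspecific background, 4.66.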

Other observations

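Metal-handling genes also differed between the regions. Steap1, of a family of metalloreductases, read 9.5, 9.28 and 9.68 at the leading edge and 8.02, 8.24 and 8.04 in the hub and rose by 1.39 ± 0.20, while Slc39a8, a zinc and manganese importer, read 7.58, 7.40 and 7.65 at the leading edge and 8.48, 8.99 and 8.42 in the hub and fell by 1.09 ± 0.21 (limma, n = 3 arrays per group). Of 22 metallothionein and metal genes 3 were higher and 6 lower, and 3 were lower without leading edge replicate 3. Decoy and other receptors of the TNF family moved apart. Tnfrsf23, a decoy receptor, read 8.98, 9.11 and 8.93 at the leading edge and 6.86, 7.15 and 6.73 in the hub, and Tnfrsf19 read 7.98, 7.86 and 7.99 at the leading edge and 9.42, 8.98 and 9.28 in the hub, a rise of 2.10 ± 0.12 and a fall of 1.28 ± 0.12.

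Hippo pathway genes gave a rise of 1.33 ± 0.24 for the transcription factor Tead4, at 8.60, 8.43 and 8.39 at the leading edge and 6.98, 7.42 and 7.04 in the hub, and a fall of 1.05 ± 0.13 for Ptpn14, a phosphatase that holds YAP out of the nucleus, at 7.57, 7.37 and 7.75 at the leading edge and 8.79, 8.69 and 8.36 in the hub. Of 24 YAP and TAZ target and pathway genes 6 were higher and 3 lower, with 3 higher without leading edge replicate 2 or hub replicate 2 and 1 lower without hub replicate 2. Fos, the immediate early gene, stood at 12.72, 12.64 and 12.70 at the leading edge and 12.70, 12.67 and 12.60 in the hub and was not called, while Fosl1, another AP-1 subunit, read 11.01, 10.93 and 10.98 at the leading edge and 10.18, 10.45 and 9.93 in the hub and rose by 0.79 ± 0.12, with a control mean of 11.48 above both.

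Several of the largest falls have no list. Slc22a4, a transporter of ergothioneine and carnitine, read 8.23, 8.08 and 7.86 at the leading edge and 9.85, 9.84 and 9.95 in the hub. Serpina3n read 6.83, 6.81 and 7.09 at the leading edge and 9.11, 8.99 and 8.59 in the hub, and the hub lay 0.82 above the control. Trim2, a ubiquitin ligase, read 7.09, 5.83 and 6.14 at the leading edge and 8.22, 8.26 and 8.26 in the hub, with leading edge replicate 1 the highest of its group. Among the largest rises, Gprc5a, an orphan receptor induced by retinoic acid, read 10.11, 9.95 and 9.91 at the leading edge and 7.55, 7.74 and 7.83 in the hub and Tll1, a protease of the BMP1 family, read 10.33, 9.82 and 9.75 at the leading edge and 7.23, 7.93 and 7.89 in the hub.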
